A study of Mus musculus with 24 samples.

Results

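Lipocalins are small secreted carrier proteins, and the major urinary proteins (Mup) are the members of the family that mouse liver secretes for excretion in the urine. Here the other secreted lipocalins and lipocalin-like carriers of the liver were examined in mice that lack the Mup gene cluster. The members were 10 genes chosen by family from the 25746 genes listed, namely Lcn2, Rbp4, Ambp, Apom, Apod, Orm1, Orm2, Orm3, C8g and Ptgds. All 10 were found in the count tables, and 9 of them passed the filter for testing, which asked 6 or more of the 24 libraries to reach 0.66 CPM (scaled counts relative to library size). Apod did not pass.

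Liver RNAseq was available for 24 mice on the C57/BL6N background at 12 weeks of age, with 6 males and 6 females of each genotype. The wildtype littermates are called mWT and fWT, and the homozygous knockout (KO) mice, in which CRISPR/Cas9 removed the whole cluster, are called mKO and fKO. The KO mice descend from a single founder, so that an effect of the deletion and of anything else carried on the founder's chromosome cannot be told apart. Library totals ranged from 15361901 to 26261394 counts. Mup genes took 1.7 to 3.68% of the counts in mWT and 0.344 to 0.555% in fWT, and at most 11 counts in a KO library. The 4 Y-linked genes checked were called higher in males, and Xist had no match in the count tables. All 20 genes listed as sex-biased in liver were called between the sexes, against 17.3% of all tested genes in WT and 14.4% in KO. They were listed with earlier results of these data known, so that this count is no independent check.

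A lipocalin is built as a barrel of protein strands around a pocket that binds a small hydrophobic ligand. Rbp4 is the plasma carrier of retinol, Apom carries sphingosine-1-phosphate on high density lipoprotein, and Ambp encodes a precursor that is cut into alpha-1-microglobulin and bikunin. The Orm genes encode orosomucoid (alpha-1-acid glycoprotein), which binds basic drugs and steroids, and Lcn2 binds iron-loaded bacterial siderophores. Both are classical acute phase genes of the liver. C8g encodes the gamma chain of complement component C8, Ptgds is both an enzyme of prostaglandin D2 synthesis and a carrier of lipophilic molecules, and Apod is a carrier found mainly outside the liver.

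4 members lie on the chromosome of the deleted cluster. In the GRCm38 annotation the 22 Mup genes span chr4:59956804-62150863, and Ambp starts 992412 bp after the end of the cluster. Orm1, Orm3 and Orm2 follow in this order, 1193697, 1205299 and 1211586 bp after it. The other members lie on chromosome 2 (Lcn2, C8g and Ptgds), chromosome 16 (Apod), chromosome 17 (Apom) and chromosome 19 (Rbp4).

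The 3 Orm genes are close paralogs. Their coding sequences of 621, 621 and 618 bases were 89.9% identical between Orm1 and Orm2, 86.4% between Orm1 and Orm3, and 88.3% between Orm2 and Orm3 over the aligned bases. To show what tells their reads apart, the coding part of exon 1 is given for each from the GENCODE M21 annotation of GRCm38. It lies on the plus strand at chr4:63344598-63344714 in Orm1, chr4:63362487-63362603 in Orm2 and chr4:63356200-63356313 in Orm3. Capitals in Orm2 and Orm3 mark bases that differ from the aligned base of Orm1, and capitals in Orm1 mark bases that differ from either of the others.
Orm1: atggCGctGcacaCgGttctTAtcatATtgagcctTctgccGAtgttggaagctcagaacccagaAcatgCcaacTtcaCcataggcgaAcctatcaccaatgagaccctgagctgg
Orm2: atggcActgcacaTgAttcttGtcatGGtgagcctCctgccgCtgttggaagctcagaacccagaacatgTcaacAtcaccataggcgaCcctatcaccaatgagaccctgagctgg
Orm3: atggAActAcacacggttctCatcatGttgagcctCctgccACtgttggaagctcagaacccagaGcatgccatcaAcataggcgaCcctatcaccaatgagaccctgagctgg

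Each of Orm2 and Orm3 has 11 such bases in capitals in this exon. Of the 676 windows of 100 bases in the Orm1 transcript, 47 also occur in Orm2 and 0 occur in Orm3. A read of this length was thus ambiguous between Orm1 and Orm2 over part of the transcript, and how such reads were counted is not given in the sources used here. Since Orm1 took most of the Orm counts, the values of Orm2 in particular are uncertain, and the summed expression of the 3 genes is given beside the single values.

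The members spanned more than 3 orders of magnitude in level. Levels between genes were compared per length, as reads per kilobase of all annotated exons (RPKM) from the scaled counts. In mWT, Rbp4 was highest at 1677 ± 143 RPKM (SD, n = 6), followed by Ambp at 1037 ± 85.5 and Orm1 at 892 ± 128 RPKM. C8g had 196 ± 5.11 and Apom 181 ± 18.5 RPKM. Orm2 at 13.1 ± 5.64, Orm3 at 5.72 ± 2.93, Lcn2 at 1.28 ± 1.02 and Ptgds at 1.27 ± 0.443 RPKM were far lower. In fWT and fKO the order was the same except that Apom came before C8g and Ptgds before Lcn2. The ranges over the 6 mice of a group overlapped between Ambp and Orm1, between C8g and Apom, and between neighbours among the low members, except Orm2 and Orm3 in mKO. They did not overlap between Rbp4 and Ambp, or between Orm1 and the next gene, in any group.

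**Figure D1:**
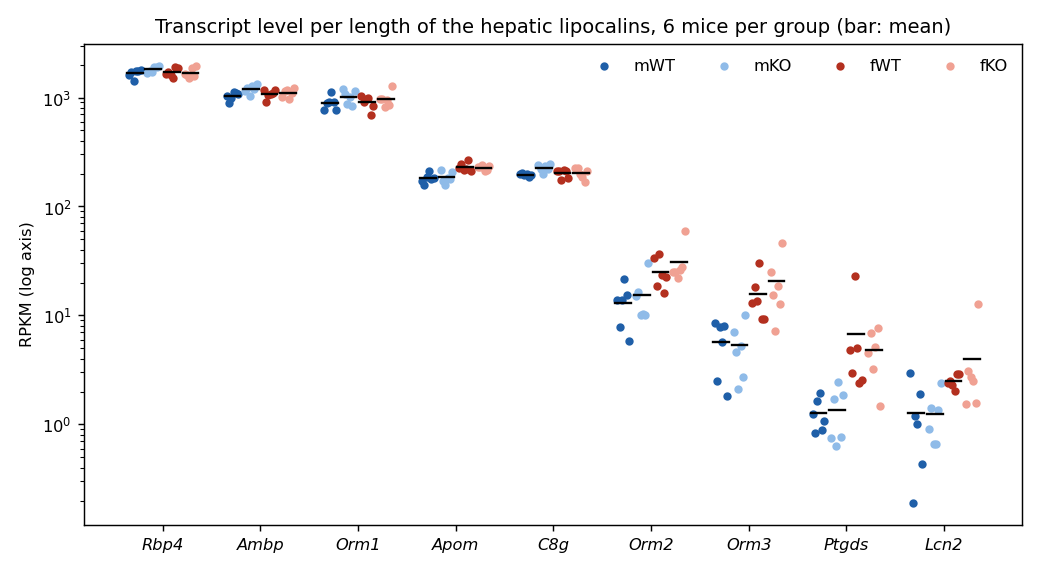
RPKM of the 9 tested members on a log axis, with 1 point per mouse, bars at the mean of 6 mice, and males in blue and females in red. Rbp4, Ambp and Orm1 lie at 692 RPKM or more in every mouse, and Orm2, Orm3, Ptgds and Lcn2 at 59.4 RPKM or less.

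Apod was at 0 counts in all 12 male libraries, which allows up to 0.0138 CPM as a mean over the males when 3 counts are taken as the limit. In females it had a few counts in fWT mice 4 and 5 and 6 counts in fKO mouse 5, and it reached at most 0.235 CPM. No difference was detectable at this depth in any of the 4 comparisons of 6 against 6 mice (two-sided exact permutation test, lowest p = 0.455). With 6 against 6 mice the smallest p this test can give is 0.00216.

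No member passed the test for an effect of the deletion in either sex. The question here was whether the remaining liver lipocalins were expressed differently once the Mup genes were gone. In males 0 of the 9 tested members had an adjusted p under 0.05, against 0.211% of all 12330 tested genes. In females the count was 0 against 0.0892%. For the difference between the male and the female KO effect it was 0 against 0.00811%. It was 0 against 0.17% for the effect averaged over the sexes. The deleted Mup genes were among the genes tested. With them removed, the male, female and averaged counts of called genes were lower, as given at the end. At shares this low, a count of 0 would be usual for any 9 genes. Adjusted p values are from edgeR's quasi-likelihood test on all tested genes with Benjamini-Hochberg adjustment, and DESeq2 also called 0 members in each of these comparisons. At an unadjusted p under 0.05 there were 2 members in males, 0 in females, 0 for the difference and 2 for the average. The share of all tested genes at that level was 10.6%, 4.87%, 5.99% and 9.57% in the same order.

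The intervals of the KO effect were narrow for the abundant members. For Rbp4, Ambp, Orm1, Apom and C8g the standard error of the log2 fold change was between 0.0729 and 0.115. Rbp4 ranged from 1903 to 2416 CPM in mWT with a median of 2330, and from 2250 to 2622 with a median of 2456 in mKO. Its log2 fold change of mKO over mWT was 0.12 with a 95% interval from −0.05 to 0.28. In females the interval ran from −0.18 to 0.15.

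C8g and Ambp had the smallest p values in males. C8g was between 281 and 302 CPM in mWT with a median of 293, and between 299 and 368 in mKO with a median of 343. The groups met only at the lowest mKO mouse, and 5 of 6 mKO mice exceeded every mWT mouse. The log2 fold change was 0.22 ± 0.07 (SE) with an edgeR adjusted p of 0.243 (0.0948 to 0.351 over the alternative fits of all libraries). In females C8g was at 300.3 ± 25.5 CPM in fWT and 301 ± 33.3 CPM in fKO (SD, n = 6), and the male and female effects did not differ past the threshold (difference 0.21, interval −0.00 to 0.42, edgeR adjusted p = 0.832).

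Ambp ranged from 1267 to 1593 CPM in mWT with a median of 1485, and from 1461 to 1884 CPM with a median of 1701 in mKO. The groups overlapped, and the log2 fold change was 0.21 ± 0.08 (SE, edgeR adjusted p = 0.302). In females it was 0.03, with an interval from −0.13 to 0.20. Orm1, the next member after Ambp on the chromosome, was at 691 ± 98.9 CPM in mWT and 791 ± 109 CPM in mKO. Its log2 fold change was 0.20, with an interval from −0.04 to 0.43. For Apom the log2 fold change was 0.04 between male groups and −0.02 between female groups, with intervals from −0.13 to 0.20 and from −0.19 to 0.14.

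For the low members the intervals were wider. The log2 fold change of Lcn2 was −0.06 in males, with an interval from −1.25 to 1.12, and that of Ptgds was 0.08, with an interval from −1.21 to 1.38. In females Lcn2 stood at 0.66, with an interval from −0.38 to 1.71, and this rested on fKO mouse 6. Without that mouse it was −0.13 (edgeR adjusted p = 0.988). The female values of Orm2 and Orm3 likewise went from 0.29 to 0.01 and from 0.41 to 0.01 without it. For Ptgds the female value went from −0.48 to 0.46 without fWT mouse 3.

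**Figure D2:**
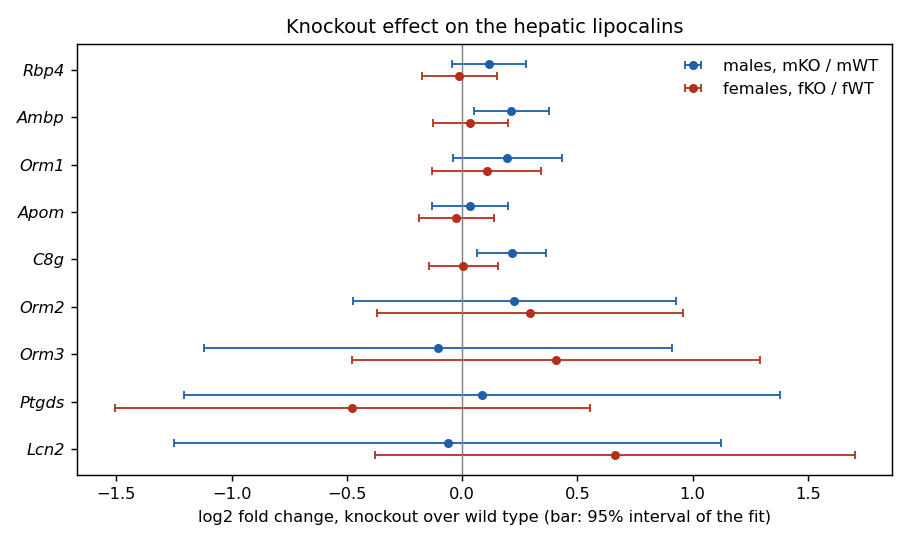
Log2 fold change of KO over wildtype for the 9 tested members on the x axis, males in blue and females in red, with bars at the 95% interval of the fit. C8g and Ambp in males are the only values whose interval lies clear of 0, at 0.22 and 0.21.

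Proximity to the deleted cluster was examined next, since Ambp and the Orm genes lie on its downstream side. From the end of the cluster to the last Orm gene lay 21 genes of the count tables, and 16 of them passed the filter. In males Zfp37 alone was called (log2 fold change 3.54, edgeR adjusted p = 3.18e-08), the gene next to the deletion, and in females its log2 fold change was 0.14 (edgeR adjusted p = 0.981). Ambp at 0.21, Orm1 at 0.20, Orm2 at 0.23 and Orm3 at −0.11 had log2 fold changes well below that. Col27a1, which lies between Ambp and Orm1 and was singled out after its value was seen, was higher in mWT than in fWT by 2.31 on the log2 scale (edgeR adjusted p = 1.16e-05). The same values were −0.06 for Ambp and −0.02 for Orm1.

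Some members differed between the sexes. In WT mice 3 of 9 members were called between males and females, namely Apom, Ptgds and Orm3, against 17.3% of all tested genes, and all 3 were lower in males, against 8.82% of genes in that direction. In KO mice the count was 5 of 9, with Lcn2 and Orm2 added, against 14.4%, and again all were lower in males, against 7.13%. Each of the 9 log2 fold changes of mWT over fWT was below 0, with a median of −0.35, while the median over all tested genes was −0.00. In KO mice 5 of the 9 were below 0, with a median of −0.29, and C8g (0.17), Ambp (0.12), Rbp4 (0.10) and Orm1 (0.07) were above 0 and not called. The abundant carriers Rbp4, Ambp and Orm1 had intervals that reached at most 0.30 in both genotypes and were not called. The sex differences in WT and KO were not shown to differ from each other for any member, as the edgeR adjusted p of that difference was at least 0.832.

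Apom ranged from 158 to 215 CPM in mWT, with a median of 182, and from 216 to 269 CPM in fWT, with a median of 227. The groups did not overlap. The log2 fold change of mWT over fWT was −0.35 ± 0.08 (SE, edgeR adjusted p = 0.00292), which made the level 1.27-fold higher in females. In KO it was 188 ± 23.2 CPM in males and 229.9 ± 11.2 CPM in females, with a log2 fold change of −0.29 (edgeR adjusted p = 0.014), and there the ranges overlapped. Both calls remained under each alternative fit and with any library left out.

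Ptgds ranged from 1.37 to 3.23 CPM in mWT, with a median of 1.92, and from 3.95 to 37.9 CPM in fWT, with a median of 6.40. All 6 fWT mice exceeded all 6 mWT mice, and fWT mouse 3 stood far above the others. The log2 fold change of mWT over fWT was −2.40 ± 0.57 (SE, edgeR adjusted p = 0.00521). Without fWT mouse 3 it was −1.47 (edgeR adjusted p = 0.0128), which is a 2.76-fold in place of a 5.27-fold higher level in females. In KO mice the range was 1.05 to 4.02 CPM in males and 2.45 to 12.6 CPM in females, with a log2 fold change of −1.84 ± 0.56 (edgeR adjusted p = 0.03). That call was lost when any of fKO mice 2 and 5 and mKO mice 1, 3 and 5 was left out (edgeR adjusted p 0.058 to 0.068, log2 fold change −1.73 to −1.66).

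The mesothelial marker genes, which mark the outer lining of the organ, were also highest in fWT mouse 3. Their sum was 14.6 CPM there and between 1.91 and 9.14 CPM in the other fWT mice, and each of the 6 listed markers was detected. Among males the sum reached 10.6 CPM in mWT mouse 3, whose Ptgds was 2.7 CPM. Of the 3 mesothelial markers tested, 0 were called between the sexes by edgeR or DESeq2, and 0 had an unadjusted p under 0.05. Of the Kupffer cell markers 5 of 8, of the sinusoidal endothelial markers 4 of 7 and of the stellate cell markers 2 of 8 were lower in mWT than in fWT, and in KO 0, 1 and 3 (DESeq2 also called 0 of the Kupffer cell markers in KO, and 2 had an unadjusted p under 0.05). Among all tested genes 8.82% were called lower in males in WT and 7.13% in KO. The summed Kupffer cell markers ranged from 82.3 to 167 CPM in mWT and from 151 to 269 CPM in fWT. The part of these cells in the sex differences was not tested, and in bulk liver fewer cells of a type and less RNA per cell cannot be told apart.

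Orm3 ranged from 1.40 to 6.56 CPM in mWT, with a median of 5.21, and from 7.13 to 23.2 CPM in fWT, with a median of 10.3. The groups did not overlap, and the log2 fold change was −1.45 ± 0.46 (SE, edgeR adjusted p = 0.0344). This call was lost when any of fWT mice 2 and 4 and mWT mice 2, 4 and 6 was left out (edgeR adjusted p 0.0544 to 0.101). It was also lost with no filter and with the replicate block (edgeR adjusted p at most 0.0548). In KO mice Orm3 was between 1.63 and 7.78 CPM in males, with a median of 3.82, and between 5.58 and 35.6 CPM in females, with a median of 13.2. The log2 fold change was −1.96 ± 0.46 (edgeR adjusted p = 0.00551), and −1.57 without fKO mouse 6 (edgeR adjusted p = 0.017).

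Orm2 showed a smaller difference. It was at 10.1 ± 4.37 CPM in mWT and 19.5 ± 6.32 CPM in fWT (SD, n = 6), with a log2 fold change of −0.94 and an edgeR adjusted p of 0.0563, just above the threshold. DESeq2 gave 0.0326. In KO mice it was between 7.82 and 23.3 CPM in males and between 17.1 and 46 CPM in females, with a log2 fold change of −1.0 (edgeR adjusted p = 0.0435). This call was lost with any of 12 libraries left out, namely mKO mice 1 to 5, fKO mice 4, 5 and 6, fWT mice 4 and 6, and mWT mice 1 and 3 (edgeR adjusted p 0.0501 to 0.126, log2 fold change −1.05 to −0.72).

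Orm1, in contrast, was at 691 ± 98.9 CPM in mWT and 702 ± 98.9 CPM in fWT, and its log2 fold change was −0.02 with an interval from −0.26 to 0.21. Orm1 made up 98% of the summed Orm expression in mWT and 95.8% in fWT. Orm2 and Orm3 together were between 0.98 and 2.83% of the sum in mWT, 1.39 and 3.39% in mKO, 3.54 and 5.07% in fWT, and 3.43 and 7.68% in fKO. The share in every fWT mouse was thus above that of every male, and the sum was not. Summed Orm was 706 ± 103 CPM in mWT, 807 ± 115 in mKO, 734 ± 107 in fWT and 796 ± 141 CPM in fKO. Its difference was within the spread for mKO against mWT (p = 0.141), fKO against fWT (p = 0.45), mWT against fWT (p = 0.647) and mKO against fKO (p = 0.855), in two-sided exact permutation tests. Without mWT mouse 4 the first of these gave an exact p of 0.0455, with mKO higher by 138 CPM.

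Lcn2 had the highest coefficient of variation of the tested members in mWT (79.6%), but not in mKO (52.8%, against 55.2% for Orm3). It ranged from 0.498 to 7.74 CPM in mWT, a 15.6-fold span with a median of 2.86, and from 1.74 to 6.24 CPM in mKO. In fWT it lay between 5.36 and 7.69 CPM with a median of 6.40. In fKO 5 mice lay between 4.04 and 8.18 CPM and mouse 6 at 33.1 CPM. The log2 fold change of mWT over fWT was −0.97 (edgeR adjusted p = 0.234) and that of mKO over fKO −1.70 ± 0.53 (edgeR adjusted p = 0.0359). Without fKO mouse 6 the latter was −0.91 (edgeR adjusted p = 0.159). It was also not called without any of mKO mice 1 to 5 (edgeR adjusted p from 0.0539).

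**Figure D3:**
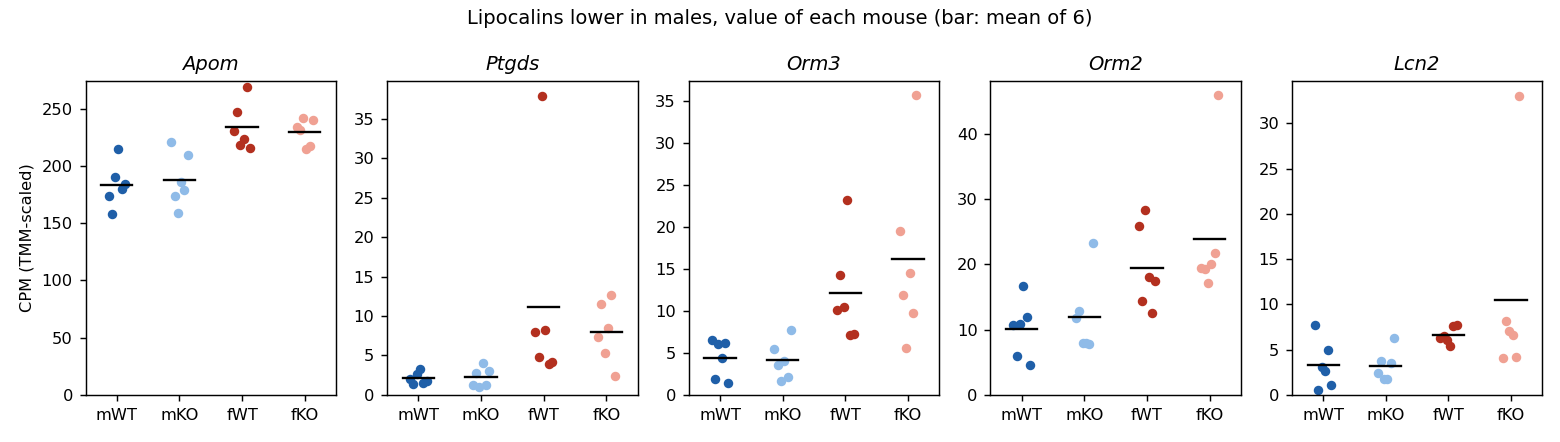
CPM of the 5 members called lower in males, in separate panels with 1 point per mouse and bars at the mean of 6. Apom separates the sexes in WT at about 216 CPM, while Ptgds in fWT mouse 3 (37.9 CPM) and Lcn2 in fKO mouse 6 (33.1 CPM) stand alone.

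The promoters of Orm2 and Orm3, the Orm genes with an entry in the promoter table, were compared in sequence. The 250 bases before the RefSeq transcript start in GRCm38.p6 are printed for Orm3 (chr4:63355908-63356157, plus strand) and Orm2 (chr4:63362199-63362448, plus strand). Capitals mark the match to TTGCNNAA, the core letters bound by factors of the C/EBP family, which drive acute phase genes in hepatocytes.
Orm3: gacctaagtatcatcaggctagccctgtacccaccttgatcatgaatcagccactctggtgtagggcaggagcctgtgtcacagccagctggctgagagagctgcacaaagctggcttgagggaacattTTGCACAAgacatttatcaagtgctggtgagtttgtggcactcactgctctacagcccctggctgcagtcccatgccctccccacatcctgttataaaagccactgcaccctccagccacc
Orm2: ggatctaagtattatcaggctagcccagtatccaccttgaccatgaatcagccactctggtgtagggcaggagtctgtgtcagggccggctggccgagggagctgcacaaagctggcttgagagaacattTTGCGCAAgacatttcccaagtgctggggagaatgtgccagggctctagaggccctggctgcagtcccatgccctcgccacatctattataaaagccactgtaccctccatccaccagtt

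Over 245 aligned bases the windows were 89% identical. The core began 121 bases before the start in Orm3 and 120 bases before it in Orm2. Of the 9 members with a promoter in the table, which are all but Orm1, the letters also occurred in Lcn2 (216 bases before the start) and in 1 of the 2 promoters of Rbp4. Both strands were searched, and 9.56% of the 32851 windows of this length held a match. For the core of NF-kappaB sites 45.8% of windows held a match, and Lcn2, Ambp, Apom, Apod, Ptgds and Rbp4 were among them. The STAT letters TTCNNNGAA (7.02% of windows) and the glucocorticoid response element letters (0.387%) were not found in any of the windows of the 9 members, nor was the HNF1 motif (0.00913%). A match is a run of letters and not a measured site.

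Whether members varied together among mice of a group was tested over the 36 pairs, on log2(CPM + 0.5) with group means removed, in 24 mice from 1 sequencing run. The Orm genes did so. Pearson's r was 0.75 for Orm1 and Orm2 (Spearman's rho 0.79, permutation p = 0.00017 and 7e-05, adjusted p = 0.00612 and 0.00252). For Orm1 and Orm3 r was 0.68 (rho 0.68, permutation p = 0.00084 and 7e-04, adjusted p = 0.0113 and 0.0104), and for Orm2 and Orm3 0.69 (rho 0.70, permutation p = 0.00094 and 0.00087, adjusted p = 0.0113 and 0.0104). Without the 2 mice farthest from the median of the first gene named, these values of r were 0.68, 0.61 and 0.57. Within the groups r for Orm1 and Orm2 lay between 0.69 and 0.89. The highest of these, in fKO, was 0.29 without fKO mouse 6. For Orm1 and Orm3 r lay between 0.24 in mWT and 0.94 in fKO, and for Orm2 and Orm3 between 0.09 in fWT and 0.84 in mWT. Orm1 and Orm2 also share stretches of read length, and the part of shared reads in their r was not tested.

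Lcn2 varied with Orm2 (r = 0.65, rho 0.56, permutation p = 0.00388 and 0.012, adjusted p = 0.0349 and 0.0865), but r was 0.67 in mWT, 0.81 in mKO and 0.87 in fKO and −0.49 in fWT, and 0.52 without the 2 mice farthest out. With Orm3 r was 0.59 (rho 0.46, permutation p = 0.00916 and 0.0442, adjusted p = 0.055 and 0.181), with −0.89 in fWT. With Orm1 it was 0.27 (rho 0.20, permutation p = 0.24 and 0.363, adjusted p = 0.448 and 0.622). Apom and C8g gave r = 0.50 (rho 0.59, permutation p = 0.00595 and 0.00365, adjusted p = 0.0428 and 0.0329), with −0.32 in mWT and between 0.58 and 0.89 in the other groups. Without fKO mouse 6, an alternative chosen after seeing the data, 0 of the 36 pairs kept an adjusted p under 0.05, and the Orm pairs had r of 0.69, 0.60 and 0.62 (adjusted p = 0.0539 for each). The Lcn2 and Orm2 pair then had r = 0.54 (adjusted p = 0.225), and its r within fKO went from 0.87 to −0.54.

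**Figure D4:**
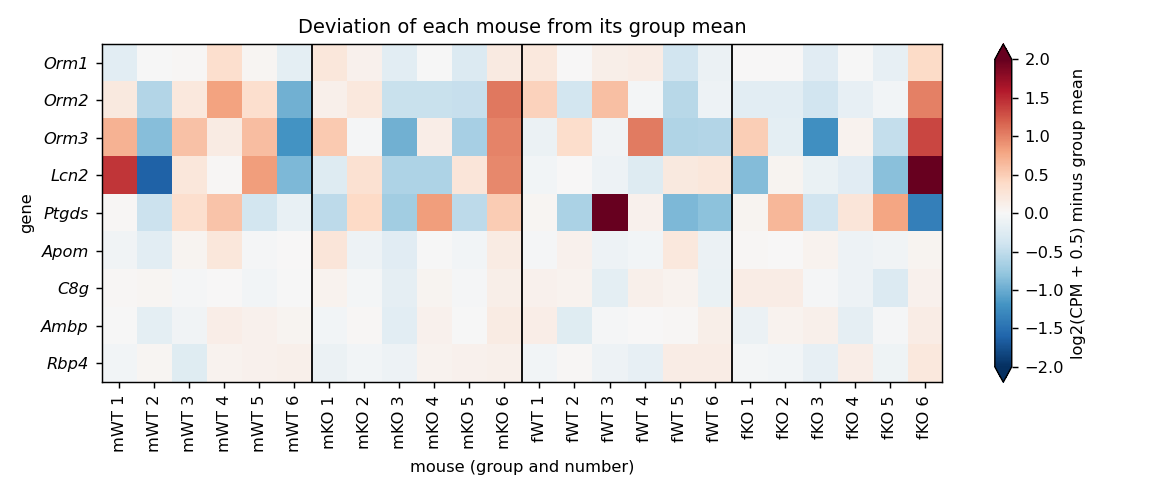
Deviation of log2(CPM + 0.5) from the group mean for the 9 tested members in each of the 24 mice, on a colour scale from −2 (blue) to 2 (red). In fKO mouse 6 Orm1, Orm2, Orm3 and Lcn2 are all above 0, Orm1 the least, and Ptgds is below 0, and fWT mouse 3 is dark red for Ptgds.

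Mouse 6 of the fKO group had the highest value of all 24 mice for Lcn2 (33.1 CPM), Orm1 (981 CPM), Orm2 (46 CPM) and Orm3 (35.6 CPM). In the other fKO mice these genes reached 8.18, 757, 21.7 and 19.4 CPM. The same mouse had the highest sum of the 22 listed acute phase proteins, 34971 CPM against 18374 to 28740 in the other 23 mice. Saa1, a serum amyloid A, was at 81.1 CPM there and at most 42.9 CPM elsewhere. Serpina3n, an inhibitor of proteases, was at 767 CPM against at most 575. Crp, Apcs and Lbp, from the same list, did not peak there. They were at 581, 139 and 109 CPM in fKO mouse 6 and at 866, 220 and 127 CPM in fKO mouse 3. Neutrophils store Lcn2 in their granules, and the 10 neutrophil markers summed to between 0.636 and 3.38 CPM over all mice. They summed to at most 1.65 CPM in fKO and to 1.23 CPM in fKO mouse 6. Only 1 of the 10 passed the filter, and the part of neutrophils in the Lcn2 values was not tested. In mKO mouse 6 the Orm2 value of 23.3 CPM was also apart from the other 5 mice, which reached 12.8 CPM, and its Lcn2 (6.24 CPM) and Orm3 (7.78 CPM) values were the highest of mKO.

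Among all 12330 tested genes, the one whose deviations were most like those of Lcn2 was Serpina3n (r = 0.84 over 24 libraries, 0.78 without fKO mouse 6). For Orm1 they were Cpb2 (0.84), which encodes a carboxypeptidase that acts on clots and inflammatory peptides, Saa1 (0.79) and the complement gene C2 (0.79). Cyb561 (0.81) was nearest to Orm2 and Mmd2 (0.79) to Orm3. Ambp was most like Vtn (0.87), which encodes vitronectin, then F10 (0.84) and Tfr2 (0.835), and Apom most like Ddx41 (0.74). Rbp4 was most like the mitochondrial genes Phb2 (0.87), Ndufa10 (0.82) and Slc25a5 (0.82), and C8g most like Mrpl27 (0.83) and Apoc3 (0.82). These genes were selected as the highest of all and are given as a description.

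Genes listed as partners of the members were compared with the members. The list holds proteins that they bind or form complexes with, and also enzymes such as Lcat and related genes such as Itih4. Of 20 listed partners 17 were tested, and 0 were called in the KO comparisons in males or in females by edgeR or DESeq2. In each sex 2 had an unadjusted p under 0.05, against 10.6% of all tested genes in males and 4.87% in females. The lowest p belonged to Ttr (transthyretin), which holds Rbp4 in plasma, in males (log2 fold change 0.30, edgeR adjusted p = 0.212) and to C8a in females (0.65, edgeR adjusted p = 0.929). Between the sexes 3 partners were higher and 6 lower in mWT than in fWT, and 3 higher and 5 lower in mKO than in fKO. Among all tested genes 17.3% were called in either direction in WT and 14.4% in KO.

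The chains of complement C8 parted by sex. C8a, the alpha chain, was at 862 ± 153 CPM in mWT and 257 ± 70.5 CPM in fWT (log2 fold change 1.75 ± 0.19, edgeR adjusted p = 4.7e-07). C8b, the beta chain, was at 458 ± 113 and 188 ± 28 CPM (1.29 ± 0.16, edgeR adjusted p = 2.79e-06). For both, all mWT mice exceeded all fWT mice. C8g, which pairs with the alpha chain, was at 293 ± 7.63 CPM in mWT and 300.3 ± 25.5 CPM in fWT, and its log2 fold change was −0.04, with an interval from −0.19 to 0.11. In KO mice the values were 1.13 for C8a and 0.69 for C8b (chosen after its value was seen, edgeR adjusted p = 0.00429), and 0.17 for C8g (interval 0.02 to 0.32, edgeR adjusted p = 0.116).

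**Figure D5:**
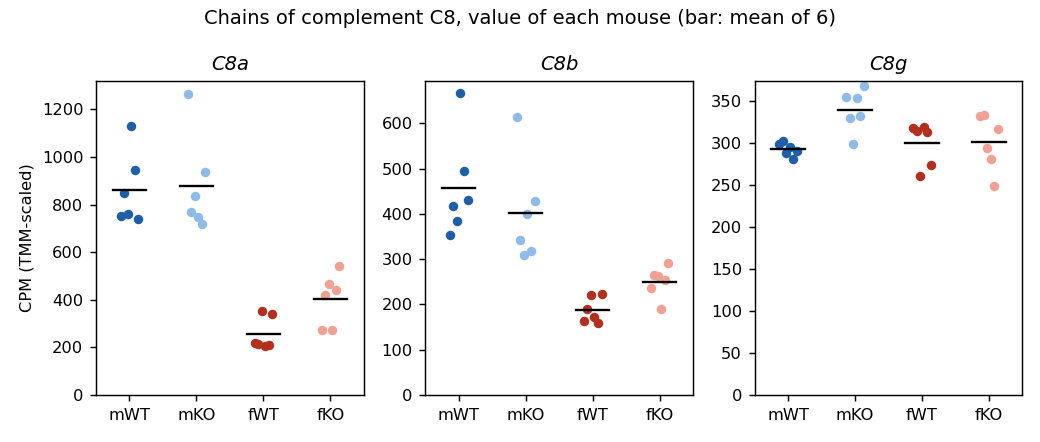
CPM of the 3 chains of complement C8 with 1 point per mouse and bars at the mean of 6. C8a and C8b are higher in males in both genotypes (862 against 257 CPM for C8a in WT), and C8g lies between 249 and 368 CPM in all mice.

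Bikunin, a product of Ambp, is joined to heavy chains encoded by Itih1, Itih2 and Itih3. In WT 2 of these 3 were called lower in males, while Itih3 was not (log2 fold change −0.25, edgeR adjusted p = 0.242), and in KO all 3 were. Itih4, a related gene whose protein lacks the link to bikunin, was lower in males by 0.66 in WT and 0.74 in KO on the log2 scale (edgeR adjusted p = 1.85e-05 and 4.46e-06). Itih2, in WT chosen after its value was seen, was at 1067 ± 40.7 CPM in mWT and 1402 ± 101 CPM in fWT and at 1046 ± 114 CPM in mKO and 1539 ± 145 CPM in fKO (log2 fold change −0.39 and −0.56, edgeR adjusted p = 5.03e-04 and 6.38e-06). Ambp itself had log2 fold changes of −0.06 and 0.12 between the sexes. Lcat, which esterifies the cholesterol of the high density lipoprotein that carries Apom, was lower in males by 0.45 in WT (edgeR adjusted p = 2.62e-04, chosen after its value was seen), in the same direction as Apom.

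Retinoid handling genes around Rbp4 gave 0 edgeR calls of 14 tested in the KO comparison in males, and 1 DESeq2 call. At an unadjusted p under 0.05 there were 6, against 10.6% of all tested genes. The lowest p was that of Rarb, a retinoic acid receptor and target of retinoic acid, at 3.17 CPM in mWT and 1.78 CPM in mKO (log2 fold change −0.83 ± 0.22, edgeR adjusted p = 0.125). In females edgeR and DESeq2 called 0 of 14, and 0 had an unadjusted p under 0.05, against 4.87% of all tested genes. Between the sexes 2 were higher and 2 lower in males in each genotype, against 17.3% of all tested genes called in WT and 14.4% in KO. Aldh1a1, which makes retinoic acid, and its close relative Aldh1a7 were higher in males by 0.66 and 0.69 in WT (edgeR adjusted p at most 0.0015), and Rarb was lower by 0.80 (edgeR adjusted p = 0.00584). Rbp4 had log2 fold changes of −0.03 in WT and 0.10 in KO in the same comparisons. Of the 13 intracellular lipid carriers 6 were tested. In males 0 were called by edgeR for the KO effect and 1 by DESeq2, with 2 at an unadjusted p under 0.05, and in females these counts were 0. In KO mice Fabp1, a liver fatty acid carrier, was higher in males (log2 fold change 0.46, edgeR adjusted p = 0.0163).

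Other acute phase and carrier proteins were listed beside the members. Of 22 acute phase proteins 0 were called for the KO effect in either sex by edgeR or DESeq2. At an unadjusted p under 0.05 there were 5 in males and 3 in females, against 10.6% and 4.87% of all tested genes. In WT 1 was higher and 6 were lower in males, led by Itih4, Lbp (log2 fold change −0.79) and Crp (−0.52), and in KO 0 were higher and 6 lower, led by Itih4, Apcs (−1.08) and Serpina3m (−0.52). Among all tested genes 8.82% were called lower in males in WT and 7.13% in KO. The median log2 fold change of the list was −0.25 in WT and −0.26 in KO, and that of all tested genes was −0.00 in both. Of 18 tested genes of acute phase signalling, edgeR called 0 for the KO effect in males or in females, and DESeq2 called 1 in males. For the effect averaged over the sexes edgeR called 1, against 0.17% of all tested genes. That gene was Il1rap, the shared subunit of interleukin-1 receptors (log2 fold change 0.26 ± 0.05, edgeR adjusted p = 0.0134). The study had already reported Il1rap as upregulated in both sexes. Of the 10 tested plasma carriers outside the family, 0 were called for the KO effect in either sex by edgeR or DESeq2. At an unadjusted p under 0.05 there were 4 in males and 1 in females, against 10.6% and 4.87% of all tested genes. Between the sexes 0 of these carriers were higher and 3 lower in males in WT, and 2 higher and 2 lower in KO. The share of all tested genes called in either direction was 17.3% in WT and 14.4% in KO. Serpina6, the carrier of corticosteroids, was lower in males by 0.92 in WT and 1.3 in KO, and Trf (transferrin) by 0.40 and 0.42 (edgeR adjusted p at most 0.00254). The 2 that were higher in males in KO were Serpina7, the thyroxine-binding globulin (log2 fold change 1.67, edgeR adjusted p = 9.28e-04), and Ttr (0.42, edgeR adjusted p = 0.00342), the latter named after its value was seen.

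The rest of the lipocalin family was close to silent in liver. Of 16 further family genes 13 were matched, 7 of them were at 0 in all 24 libraries, and Obp2a, an odorant binding protein, alone passed the filter. It was found in all 12 males, at 0.187 to 4.08 CPM in mWT and 2.65 to 5.44 CPM in mKO. It was at 0 in all 6 fWT mice and had 2 counts in 1 fKO mouse. Against a limit of 3 counts over the fWT group, its mean level in mWT was at least 90.5-fold higher. Only male libraries reached the 0.66 CPM of the filter, so the edgeR calls of both sex differences are no separate support. The lowest mWT value, in mouse 1, came from 3 counts. The KO effect in males was not called (2.13 ± 1.51 against 3.63 CPM, edgeR adjusted p = 0.51).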

How the data were processed

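Polyadenylated liver RNA was sequenced on a NovaSeq as single 100-base reads in a single multiplexed run. Per the labels and the study's methods, the authors demultiplexed with bcl2fastq 2.19, trimmed with fastp 0.20, aligned to GRCm38.p6 with STAR 2.7a and deposited raw counts per gene from featureCounts. The strand setting, annotation release and treatment of reads with several matches are not given in the sources used here. Their processing notes also name edgeR 3.28.1. Of 25746 genes, 25712 were matched to GENCODE M21 names and positions.

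From the deposited counts, libraries were scaled by TMM in edgeR 4.0.16 (R 4.3.3), and the 12330 genes that reached 0.66 CPM in 6 or more libraries were fitted with 4 group means, robust quasi-likelihood F-tests and Benjamini-Hochberg adjustment. Totals of 15361901 to 26261394 counts set a limit of 3 counts for a gene at 0, which covers counting error only. Single values were tested by two-sided exact permutation, and correlations with 100000 permutations. The labels do not tie same-numbered mice to a litter or a batch, and give no batch. DESeq2 1.42.0, other scalings, filters and dispersions, removal of Mup genes, a replicate block, separate sexes and each library left out were the alternatives. The scripts were tested on simulated data.

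The members and gene lists were chosen with earlier results of these data known. The named genes were all members, at most 3 genes per list and comparison with the smallest p among those called (the 1 with the smallest p where none was called), and genes among the 3 most like each member. Others are marked. Some results are not reported here.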

Additional observations from a re-analysis of the deposited data

Results flagged for a closer look

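In 7 of 42 groups of 6 mice examined, 1 mouse stood apart from the others by Dixon's criterion. Its gap to the nearest mouse was more than 0.625 of the whole range, which chance gives in about 1 in 20 groups of normally distributed values. The criterion was applied to untransformed CPM, and the rate for such values was not tested. Of the 7 groups, 4 were marked by the same mouse, fKO mouse 6, with Lcn2 at 33.1 CPM, Orm1 at 981 CPM, Orm2 at 46 CPM and the summed Orm genes at 1063 CPM. The values of the other 5 fKO mice were at most 8.18 CPM for Lcn2, 757 CPM for Orm1 and 21.7 CPM for Orm2. The Orm genes share part of their sequence and their sum contains Orm1, so these are not separate measurements.

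In mKO, mouse 6 had 23.3 CPM of Orm2, and the other 5 mice had 7.82 to 12.8 CPM. In fWT, mouse 3 had 37.9 CPM of Ptgds, and the other 5 mice had 3.95 to 8.24 CPM. Apod was at 0.235 CPM in fKO mouse 5 from 6 counts and at 0 in the other 5 fKO mice.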

How the results depend on the processing

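No member was called for a KO effect under any alternative, and the calls of Apom, Ptgds in WT and Orm3 in KO stayed past the threshold in all of them. For all genes, the male KO count of 26 became 139 with DESeq2, 2 with Mup genes removed, 49 with each sex fitted on its own, and 19 to 59 with a library left out (59 without mWT mouse 1 and 40 without mWT mouse 2). The female count of 11 became 18 with DESeq2 and 0 with Mup genes removed, the count of 1 for the difference became 11 with DESeq2, and the averaged count of 21 became 50 with DESeq2 and 1 with Mup genes removed. Removing the Mup genes takes called genes out of the table, and the cause of the other changes was not tested. The 5 members called between the sexes in KO were 3 with no filter, 3 with the replicate block, and 2 to 5 with a library left out. In WT, Orm3 lost its call with no filter and with the replicate block. Orm2 gained a call in WT with DESeq2, with library totals and with non-robust dispersions. Correlations of same-numbered mice ran from −0.34 to 0.25. Between mKO and fWT, 3 mKO mice correlated best with the fWT mouse of their own number, and between other groups at most 1 did so. Whether the mouse numbers mark a pairing was not tested.

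Log2 fold changes near 0 changed sign. With library totals the female KO effect was −0.0428 for C8g and −0.0121 for Ambp, and the averaged effect of Apom was −0.0254. With the replicate block the averaged effect of Ptgds was 0.00245. With a library left out, KO effects in males ran from −0.16 to 0.26 for Ptgds, −0.35 to 0.36 for Lcn2, −0.37 to 0.0578 for Orm3, −0.0696 to 0.43 for Orm2 and −0.0161 to 0.0854 for Apom. In females they ran from −0.66 to 0.46 for Ptgds, −0.0315 to 0.0547 for C8g, −0.13 to 0.83 for Lcn2, −0.0106 to 0.0731 for Ambp, −0.0472 to 0.019 for Apom and −0.0573 to 0.0194 for Rbp4. Averaged effects ran from −0.32 to 0.27 for Ptgds, −0.0956 to 0.51 for Lcn2, −0.0461 to 0.30 for Orm3 and −0.0205 to 0.0302 for Apom. The difference of the KO effects ran from −0.37 to 0.74 for Ptgds, −1.02 to 0.0662 for Lcn2 and −0.37 to 0.22 for Orm2, and the sex difference in WT from −0.0985 to 0.0168 for Orm1 and −0.0596 to 0.0161 for Rbp4. Summed Orm differed by 76 to 138 CPM between mKO and mWT and by −15.9 to 64.3 CPM between mKO and fKO. Without fKO mouse 6 the pairs of members that varied together went from 5 to 0.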
